A study of Mus musculus with 8 samples.

Results

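Kupffer cells are the macrophages that reside in the liver sinusoids. The 9 genes described here, Clec4f, Timd4, Vsig4, Cd5l, Marco, Adgre1, Cd163, Folr2 and Csf1r, are a named list of their markers, read from a table of 35275 gene identifiers by their mouse symbols. All 9 were found and all 9 had a mean above the minimum for testing. RNA from 8 livers was sequenced: 4 were labelled Triple LKO (2 females and 2 males) and 4 were labelled WT (2 females and 2 males). The series title gives the mutation as loss, in liver, of the 3 tristetraprolin (TTP) family proteins, which are encoded by Zfp36, Zfp36l1 and Zfp36l2 and which bind AU-rich stretches of mRNAs and promote their decay. The title also names hepatocellular carcinoma as the outcome. The strain, the ages, the promoter of the deleting recombinase, the cell types it reaches and whether tumour or surrounding tissue was taken were not stated in the labels, and neither was whether Kupffer cells themselves carry the deletion. Nothing states whether each library is a separate animal, and p-values then measure the spread between these livers.

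Kupffer cells clear bacteria, dying cells, haemoglobin and complement-coated particles from portal blood. Resident cells are seeded before birth and renew themselves through CSF1 receptor signalling, and when they are lost the space is filled by blood monocytes that acquire the resident genes step by step. Their identity in mice is held by liver X receptor alpha, by SMAD signalling from BMP9 and by Notch signals from the endothelium. Of the 9 genes, Clec4f is nearly restricted to Kupffer cells in mice and Timd4 is typical of long-resident cells, whereas Adgre1 and Csf1r mark macrophages in general and Csf1r is also found on monocytes.

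Promoters of 4 markers that were called lower are shown to let the sequence before their starts be compared. Of the 9 members, 7 had an entry among the RefSeq promoters of build GRCm38.p6, in 8 windows of 250 bases before the start, as Folr2 has 2. Capitals mark the letters of 2 motifs that macrophage factors can bind, GAGGAA (the core of the site of PU.1, the myeloid master factor) and TGCTGAC (a half-site of MAF proteins), searched on both strands. Clec4f at chr6:83656117-83656366, minus strand, held neither motif, Timd4 at chr11:46810549-46810798, plus strand, held the MAF letters, and Vsig4 at chrX:96293439-96293688 and Marco at chr1:120505025-120505274, both minus strand, held PU.1 letters.
Clec4f: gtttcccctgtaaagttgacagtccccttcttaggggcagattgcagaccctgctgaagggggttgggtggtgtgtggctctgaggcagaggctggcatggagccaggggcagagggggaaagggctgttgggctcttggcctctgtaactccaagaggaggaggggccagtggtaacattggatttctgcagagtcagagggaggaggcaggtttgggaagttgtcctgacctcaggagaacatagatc
Timd4: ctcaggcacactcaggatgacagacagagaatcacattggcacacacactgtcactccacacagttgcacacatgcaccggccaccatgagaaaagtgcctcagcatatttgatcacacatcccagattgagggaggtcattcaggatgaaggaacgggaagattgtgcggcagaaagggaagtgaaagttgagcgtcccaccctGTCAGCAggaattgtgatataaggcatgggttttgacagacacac
Vsig4: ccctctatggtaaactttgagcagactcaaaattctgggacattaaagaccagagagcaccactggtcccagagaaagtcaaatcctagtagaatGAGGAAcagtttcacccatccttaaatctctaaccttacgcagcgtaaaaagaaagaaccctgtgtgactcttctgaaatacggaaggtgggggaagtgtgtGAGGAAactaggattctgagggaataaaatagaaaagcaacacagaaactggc
Marco: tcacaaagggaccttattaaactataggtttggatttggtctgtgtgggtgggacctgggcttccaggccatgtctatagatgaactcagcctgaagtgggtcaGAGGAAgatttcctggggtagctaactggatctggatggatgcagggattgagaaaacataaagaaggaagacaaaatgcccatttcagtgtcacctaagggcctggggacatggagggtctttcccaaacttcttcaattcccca
GAGGAA was in 3 of the 8 windows (Marco, Cd5l and Vsig4) and in 23.3% of 32851 RefSeq promoters. TGCTGAC was in the window of Timd4 and in 3.81% of promoters. The DR4 repeat that liver X receptors bind, 2 copies of AGGTCA with any 4 bases between them, was in no member window and in 0.0152% of promoters. A match is a description of letters and not of binding. The members lie on 8 chromosomes, Clec4f and Cd163 both on chromosome 6. Folr2 overlaps 2 annotated genes on the opposite strand, and Csf1r overlaps Mir6983 on its own strand and Hmgxb3 on the opposite one. The labels do not say whether the counting used strand, so reads of these overlaps cannot be told apart.

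RNA of the 3 targeted genes followed the deletion label only in part. In the LKO-labelled livers Zfp36 was at 11.6 and 17.4 FPKM (fragments per kilobase of transcript, scaled to depth) in the females and at 4.51 and 3.66 in the males, against 29.5 to 61.4 in WT livers, and Zfp36l1 was called lower over all livers too (log2 change −2.21, limma adjusted p = 0.0152). Zfp36l2 was at 18.1 and 33.0 FPKM in the LKO-labelled females, above every WT liver (11.8 to 17.2), and at 4.34 and 3.86 in the males. In the 2 females the RNA of 1 of the 3 genes thus went against the label, and the group is called LKO-labelled throughout. Reads from exons that remain after deletion may contribute to such values. Which cells carry the deletion is not stated, so RNA of whole liver does not test the deletion itself. The 2 LKO-labelled females stand apart in other ways: their Pearson r across 13573 genes was 0.88, against 0.97 between the LKO-labelled males and 0.98 within either WT pair. Depth, recovered from the FPKM steps, was 15109700 to 18788679 fragments. The transcript Gm42418 took 0.0423% of fragments in LKO-labelled female 1 and 0.0602% in WT male 4, against 3.19% to 4.34% in the other 6 livers. Of 13573 genes tested, 3353 were called higher and 779 lower in the LKO-labelled livers. The median gene stood 0.39 higher in them on the log2 scale, and 0.05 higher after median-of-ratios scaling, under which 1417 genes were called higher and 1481 lower. With quantile normalization 1045 were called higher and 1376 lower.

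Most of the resident markers were lower in LKO-labelled livers, and the general macrophage receptors were not. By limma, 6 of the 9 were called, where 30.4% of all tested genes were, and all 6 were lower (Clec4f, Timd4, Vsig4, Marco, Cd163 and Folr2), with 5.74% of all tested genes called lower. Of the 9, 0 were called higher by limma or by limma-voom, where 24.7% of all genes were by limma, although Adgre1 and Csf1r passed in that direction at an unadjusted p under 0.05, as 37.6% of all genes did. Without WT replicate 2 the count called lower was 3. The median change over the 9 members was −1.79 on the log2(FPKM + 1) scale, against 0.39 over all tested genes. In 4 members, Clec4f, Timd4, Marco and Cd163, every LKO-labelled liver lay below every WT liver, a pattern shown by 5.72% of tested genes, and in 0 members every LKO-labelled liver lay above every WT liver, as 25.6% of tested genes did. In bulk liver RNA, fewer cells of a type and less RNA per cell cannot be told apart.

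**Figure D1:**
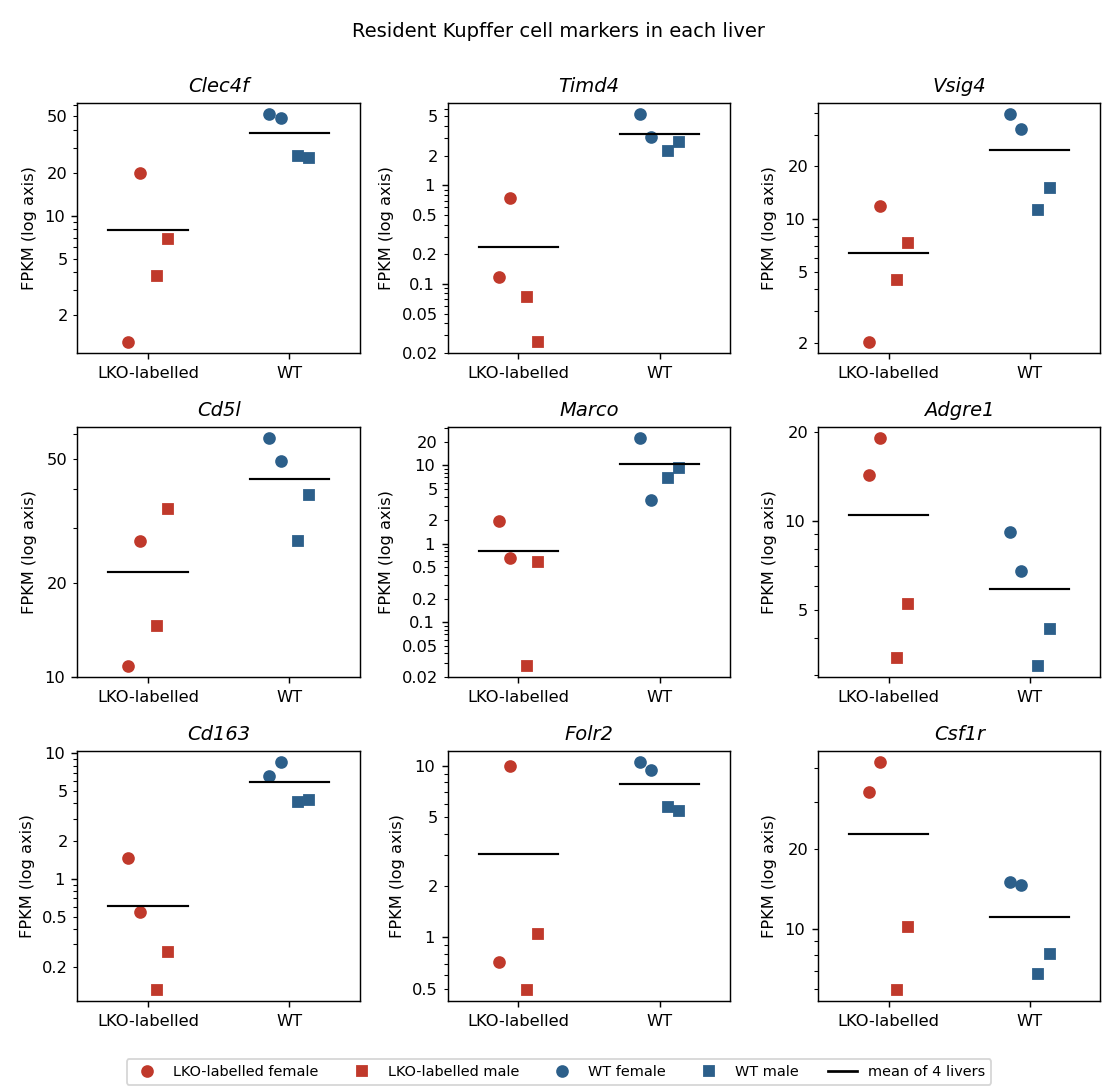
Level of each of the 9 markers in each liver (FPKM, log axis) for LKO-labelled livers (left of each panel) and WT livers (right), with circles for females, squares for males and a line at the mean of 4 livers. Clec4f, Timd4, Marco and Cd163 do not overlap between the groups, whereas Csf1r and Adgre1 are highest in the LKO-labelled females.

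Clec4f, the C-type lectin that marks Kupffer cells in mice (chr6:83644542-83656187 in GENCODE M21, GRCm38, as for the spans of the other genes), was at 1.30 and 19.8 FPKM in female LKO-labelled livers and 3.75 and 6.81 in male ones, against 51.5 and 48.3 in the WT females and 26.0 and 25.5 in the WT males. Every LKO-labelled liver was below every WT liver, and LKO-labelled female 2 was the nearest to them. The mean was 7.92 ± 8.26 FPKM in LKO-labelled livers and 37.8 ± 14.01 in WT livers (SD, n = 4 each), or 4.78-fold lower (3.74-fold without LKO-labelled female 1 and 9.58-fold without LKO-labelled female 2). The log2 change was −2.51 ± 0.59 (SE; limma adjusted p = 0.0172). A two-sided exact permutation test of the mean difference over 70 arrangements gave p = 0.0286, the smallest it can give. Without WT replicate 2, a female, the limma adjusted p was 0.0520.

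Timd4 (chr11:46810800-46844332) encodes TIM-4, a receptor for phosphatidylserine on dying cells. It was at 0.118 and 0.741 FPKM in female LKO-labelled livers and 0.0735 and 0.0258 in male ones, against 5.26 and 3.06 in the WT females and 2.24 and 2.74 in the WT males. The LKO-labelled livers were all low, the males lowest, and no value reached the WT range. These levels rest on 4 and 27 fragments in female LKO-labelled livers and 3 and 1 in male ones, against 190, 113, 88 and 90 in the WT livers. The mean was 0.240 ± 0.336 FPKM in LKO-labelled livers and 3.33 ± 1.33 in WT livers (SD, n = 4 each), 13.9-fold lower, or 45.9-fold without LKO-labelled female 2. The log2 change on the log2(FPKM + 1) scale, which understates the change of a low gene, was −1.79 ± 0.23 (SE; limma adjusted p = 0.00197; exact permutation p = 0.0286).

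Vsig4 (chrX:96247203-96293438), the complement receptor CRIg that catches complement-coated bacteria, was at 2.02 and 11.9 FPKM in female LKO-labelled livers and 4.50 and 7.29 in male ones, against 39.3 and 32.4 in the WT females and 11.3 and 14.97 in the WT males. LKO-labelled female 2 slightly exceeded WT male 3, and the other LKO-labelled livers were below all WT livers. The mean was 6.42 ± 4.22 FPKM in LKO-labelled livers and 24.5 ± 13.5 in WT livers (SD, n = 4 each). The log2 change was −1.81 ± 0.48 (SE; limma adjusted p = 0.0256), with an exact permutation p of 0.0571. Its limma call ended without LKO-labelled replicate 3, WT replicate 1 or WT replicate 2 (adjusted p up to 0.0750) and with no filter on low values.

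Marco, Cd163 and Cd5l belong to the scavenger group. Marco (chr1:120474538-120505024), a class A scavenger receptor for bacteria, was at 1.93 and 0.650 FPKM in female LKO-labelled livers and 0.0276 and 0.583 in male ones, against 22.2 and 3.64 in the WT females and 6.85 and 9.11 in the WT males. WT female 2 was the lowest WT liver and still above every LKO-labelled liver, and the value of LKO-labelled male 3 rests on 1 fragment. The mean was 0.799 ± 0.806 FPKM in LKO-labelled livers and 10.4 ± 8.14 in WT livers (SD, n = 4 each), 13.1-fold lower (24.8-fold without LKO-labelled female 1 and 8.18-fold without WT female 1), with a log2 change of −2.52 ± 0.48 (SE; limma adjusted p = 0.00796; exact permutation p = 0.0286).

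Cd163 (chr6:124304656-124330527), the receptor for haptoglobin-bound haemoglobin, had the smallest limma p of the 9. It was at 1.47 and 0.544 FPKM in female LKO-labelled livers and 0.130 and 0.262 in male ones, against 6.63 and 8.51 in the WT females and 4.12 and 4.26 in the WT males. All LKO-labelled livers were low and the groups were far apart. The mean was 0.602 ± 0.605 FPKM in LKO-labelled livers and 5.88 ± 2.10 in WT livers (SD, n = 4 each), 9.77-fold lower (18.8-fold without LKO-labelled female 1), and the log2 change was −2.12 ± 0.20 (SE; limma adjusted p = 0.000785; exact permutation p = 0.0286).

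Cd5l (chr3:87357881-87371073) encodes a secreted scavenger protein, also called AIM, whose gene is a known target of liver X receptors. It was at 10.9 and 27.3 FPKM in female LKO-labelled livers and 14.6 and 34.4 in male ones, against 58.3 and 49.1 in the WT females and 27.3 and 38.3 in the WT males. LKO-labelled male 4 and, barely, LKO-labelled female 2 exceeded WT male 3, so the groups overlapped. The mean was 21.8 ± 11.0 FPKM in LKO-labelled livers and 43.2 ± 13.4 in WT livers (SD, n = 4 each). The log2 change of −1.04 (95% interval −1.92 to −0.16) did not pass (limma adjusted p = 0.0706), except with median-of-ratios scaling or without LKO-labelled replicate 4 (adjusted p down to 0.0306).

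Folr2 (chr7:101839988-101857194), folate receptor beta, was at 0.714 and 10.0 FPKM in female LKO-labelled livers and 0.493 and 1.04 in male ones, against 10.5 and 9.49 in the WT females and 5.75 and 5.46 in the WT males. LKO-labelled female 2 lay within the WT range, and the other LKO-labelled livers lay below every WT liver. The mean was 3.06 ± 4.63 FPKM in LKO-labelled livers and 7.80 ± 2.57 in WT livers (SD, n = 4 each). The log2 change was −1.63 ± 0.50 (SE; limma adjusted p = 0.0399; exact permutation p = 0.114). This call ended in 11 of 19 alternatives, with an adjusted p of up to 0.162.

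Adgre1 and Csf1r were the members whose log2 change was above 0. Adgre1 (chr17:57358691-57483527), which encodes the macrophage surface protein F4/80, was at 14.3 and 19.0 FPKM in female LKO-labelled livers and 3.43 and 5.22 in male ones, against 9.15 and 6.76 in the WT females and 3.23 and 4.28 in the WT males. The females stood above the males in both groups, and the groups overlapped. Its log2 change was 0.56 (95% interval 0.01 to 1.12; limma adjusted p = 0.105; exact permutation p = 0.314). Csf1r (chr18:61100598-61132149), the receptor for CSF1 and IL-34 on which macrophage survival depends, was at 32.5 and 42.1 FPKM in female LKO-labelled livers and 5.93 and 10.2 in male ones, against 14.96 and 14.6 in the WT females and 6.81 and 8.11 in the WT males. Here the LKO-labelled females were above every other liver and the LKO-labelled males lay around the WT males. The log2 change was 0.67 (95% interval 0.01 to 1.32; limma adjusted p = 0.104; exact permutation p = 0.343). Without LKO-labelled replicate 3 it passed (adjusted p = 0.0337).

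Sex was examined by fitting 1 mean per genotype and sex, with 2 livers behind each mean. Within females 8 members were called, where 34.3% of genes were. These were 6 called lower (Clec4f, Timd4, Vsig4, Cd5l, Marco and Cd163) and 2 called higher (Adgre1 and Csf1r), where 6.23% of genes were called lower and 28.1% higher. Csf1r averaged 37.3 FPKM in LKO-labelled females and 14.8 in WT females (log2 change 1.27; limma adjusted p = 0.0117), and Adgre1 averaged 16.6 FPKM in LKO-labelled females and 7.96 in WT females (0.98; adjusted p = 0.0298). Neither of these 2 was called higher under median-of-ratios scaling or quantile normalization, which left 0 of 9 members called higher in females. Within males 3 were called lower (Timd4, Marco and Cd163), where 4.09% of genes were. No member was called higher by limma in males, by limma-voom or at an unadjusted p under 0.05, where 13.4% of genes were called higher. Csf1r averaged 8.07 FPKM in LKO-labelled males and 7.46 in WT males (log2 change 0.06; limma adjusted p = 0.907), and both scalings put this value at −0.25. The test of the difference between the sexes called 0 of 9 members by limma and by limma-voom, where 7.21% of genes were called (5.47% with the larger and 1.73% with the smaller value in females), and 1 member, Csf1r (difference 1.203), passed at an unadjusted p under 0.05, as 25.5% of all genes did (limma adjusted p = 0.105). Leaving out 1 liver moved the count called lower to between 2 and 6 in females (2 without WT replicate 1 and 3 without any other WT liver) and between 1 and 6 in males (1 without either liver of either male pair, 6 without either LKO-labelled female), and it moved the count called higher in females to between 0 and 2 (0 without either WT female, 1 without LKO-labelled replicate 2). For the difference between the sexes, 2 were called without LKO-labelled replicate 2 and 1 without LKO-labelled replicate 1. Each of these fits leaves 1 liver in 1 group, which is assumed to vary like the other groups. Limma-voom called 5 members lower in females and 2 in males, Marco being lost in both sexes. Of all 13573 tested genes it called 798 lower in females and 550 in males. The call of Marco in females ended in 9 of 12 alternatives, and its call in males in 5 of 12. The call of Timd4 in males ended in each of the 4 fits that leave out a male liver. Cd163 changed by −2.13 in females and −2.12 in males on the log2(FPKM + 1) scale, but its level in LKO-labelled livers was 13.3% of the WT mean in females and 4.69% in males, and the difference between the sexes was 0.97 with 0.1 FPKM added and 1.38 by limma-voom. In WT livers both females exceeded both males in 8 of the 9 members, the exception being Marco. The share of all genes with this pattern was not computed. Even so, the limma test between WT sexes called 0 of 9 by either tool, where limma called 0.427% of genes. At an unadjusted p under 0.05, 3 of the 9 passed and 5.15% of all genes did.

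**Figure D2:**
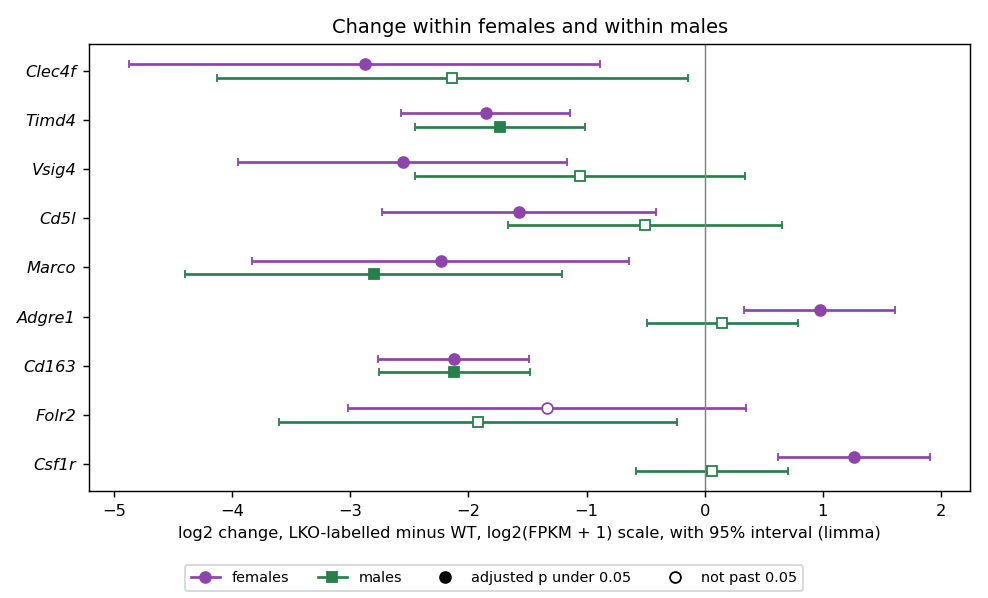
Change of each marker, LKO-labelled minus WT, on the log2(FPKM + 1) scale within females (circles) and within males (squares), with 95% intervals from limma and filled symbols for an adjusted p under 0.05. Csf1r and Adgre1 are the 2 markers called higher in females, and Timd4, Marco and Cd163 are called lower in both sexes, Marco in neither by limma-voom.

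Each marker was also set against Csf1r in the same liver, with 8 ratios computed on log2((FPKM + 0.1)/(FPKM + 0.1)). Csf1r was itself higher in the LKO-labelled females (32.5 and 42.1 FPKM, against 14.96 and 14.6 in the WT females), which lowers any ratio to it there. In males it hardly differed (means of 8.07 FPKM in LKO-labelled and 7.46 in WT livers). The log2 ratio of Clec4f to Csf1r was −4.54 and −1.08 in female LKO-labelled livers and −0.65 and −0.58 in male ones, against 1.64 to 1.92 in WT livers. Its mean was −1.71 ± 1.90 in LKO-labelled livers and 1.76 ± 0.12 in WT livers (SD, n = 4 each), so the ratio was almost constant in WT livers and spread widely in the others. The difference for Clec4f was −3.48 on the log2 scale. The differences for Timd4 (−4.39), Vsig4 (−2.69), Marco (−4.51), Cd163 (−4.10) and Folr2 (−2.995) likewise had no overlap between the groups. Each of these 6 had the smallest possible exact permutation p of 0.0286 (0.0381 after Benjamini-Hochberg adjustment over the 8 ratios). The share of all genes whose ratio to Csf1r had no overlap was not computed. Cd5l had a difference of −1.77 (exact permutation p = 0.0571, adjusted 0.0653). The ratio of Adgre1 to Csf1r averaged −1.01 ± 0.19 in LKO-labelled livers and −0.94 ± 0.18 in WT livers (SD, n = 4 each), a difference of −0.07 (exact permutation p = 0.6). With C1qa or Ptprc in place of Csf1r, 7 ratios reached the smallest p, Cd5l being the one gained, as also with 1 FPKM added in place of 0.1. With 1 FPKM added, the differences were −3.17 (Clec4f), −2.46 (Timd4), −2.47 (Vsig4), −3.19 (Marco), −2.79 (Cd163) and −2.29 (Folr2). The sizes for Timd4, Marco and Cd163, which were low in LKO-labelled livers, thus depend on the value added. C1qa (means 102 and 39.1 FPKM in LKO-labelled and WT livers) and Ptprc (14.2 and 2.95) were themselves called higher in LKO-labelled livers, which lowers ratios to them.

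**Figure D3:**
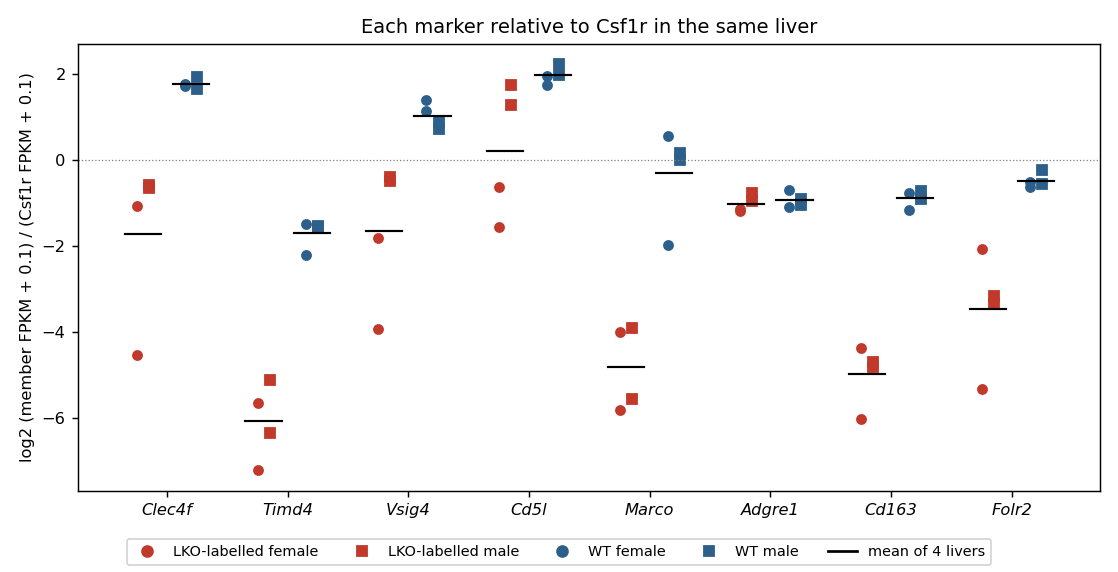
Log2 ratio of each other marker to Csf1r in the same liver (0.1 FPKM added to both), LKO-labelled livers left of WT livers for each gene, with circles for females, squares for males and a line at the mean of 4 livers. The groups overlap for Adgre1 and Cd5l and not for the other 6 markers.

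Across the 8 livers, Pearson r of log2(FPKM + 1) between any 2 of the 7 markers other than Adgre1 and Csf1r was 0.62 (Cd5l with Marco) to 0.97, and that between Adgre1 and Csf1r was 0.99. Clec4f correlated with Vsig4 at 0.97, with Folr2 at 0.93, with Timd4 at 0.90 and with Marco at 0.68, while its r with Csf1r was −0.12. These values describe 8 livers that share genotype groups and libraries. In 7 of the 9 markers, all but Marco and Cd163, LKO-labelled female 2 was above LKO-labelled female 1. Among 11302 genes with a mean of at least 1 FPKM, the 5 with the pattern most like Clec4f were Zfp395 (r = 0.99), Zfp825, Afm, Khdrbs3 and Man1a (each 0.98). Afm encodes afamin, a plasma protein. The 5 most like Timd4 were Hsd11b1, which regenerates active glucocorticoid, Hs3st3b1 (both 0.99), Ang, Cyb5d2 and Zfp946 (each 0.98), and among those most like Csf1r were Ezr, Adgre1, Sema6d (each 0.99) and Arhgdib (r of 0.98 or above).

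Other genes of Kupffer cells did not move as one over all livers. Of a further 24 Kupffer-associated genes, 22 were tested, and 5 were called lower and 4 higher, with a median log2 change of 0.11 (−0.20 after median-of-ratios scaling). For this list and the lists below, the limma calls over all livers stand beside 24.7% of all tested genes called higher and 5.74% lower. Without the 2 livers low in Gm42418, 1 was called lower and 3 higher. Within females 6 were called higher and 1 lower, where 28.1% of all genes were called higher and 6.23% lower. Within males 0 were called higher and 4 lower, where 13.4% of all genes were called higher and 4.09% lower. Fcna, a ficolin that starts the lectin complement pathway, was at 1.64 and 3.04 FPKM in female LKO-labelled livers and 1.01 and 2.69 in male ones, against 12.4 and 14.1 in the WT females and 8.18 and 9.39 in the WT males. It was low in every LKO-labelled liver, with a log2 change of −1.99 ± 0.24 (SE; limma adjusted p = 0.00172). Cd207, which encodes the lectin langerin, also fell (−1.43; adjusted p = 0.0123). Vcam1, an adhesion molecule for leukocytes that endothelium carries too, rose to 34.9 ± 27.5 FPKM in LKO-labelled livers, against 5.32 ± 1.77 in WT livers (SD, n = 4 each). Slc11a1, a metal transporter of phagosomes, rose as well (2.07, limma adjusted p = 0.0159). Neither Vcam1 (limma adjusted p = 0.0569) nor Slc11a1 (limma adjusted p = 0.169) was called within males. Clec1b, another lectin of Kupffer cells, was at 1.90 ± 0.86 FPKM in LKO-labelled livers and 2.25 ± 0.19 in WT livers (SD, n = 4 each) and did not pass (adjusted p = 0.510).

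Of 17 macrophage and Kupffer transcription factors, 2 were called higher and 3 lower, with a median log2 change of 0.45, and without the 2 livers low in Gm42418 4 were called higher and 1 lower. Nr1h3, which encodes liver X receptor alpha and is expressed by hepatocytes as well, averaged 32.9 ± 5.99 FPKM in LKO-labelled livers and 53.8 ± 7.49 in WT livers (SD, n = 4 each; log2 change −0.70; limma adjusted p = 0.0218). Its partner Rxra fell by 0.91 (adjusted p = 0.00905). Spic, a factor of iron-recycling macrophages, rose to 3.15 ± 1.24 FPKM in LKO-labelled livers, against 0.636 ± 0.397 in WT livers (SD, n = 4 each; 1.32; adjusted p = 0.00819), and so did Irf8 (1.35; adjusted p = 0.00864). Id3, a Kupffer cell factor, did not pass (−0.70; adjusted p = 0.276).

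Among 11 tested niche and recruitment ligands of a list of 12, 3 were called higher and 3 lower, and without both LKO-labelled females 0 were called higher and 3 lower. Median-of-ratios scaling left 1 called higher and 4 lower. The BMP ligands Gdf2, which encodes BMP9, and Bmp2 fell by 1.37 (limma adjusted p = 0.00470) and by 1.14 (adjusted p = 0.00728). The monocyte attractant Ccl2 averaged 20.9 ± 23.7 FPKM in LKO-labelled livers and 0.621 ± 0.394 in WT livers (SD, n = 4 each; log2 change 2.75; adjusted p = 0.0162), and Tgfb1 rose by 1.41 (adjusted p = 0.0230). The CSF1 receptor ligands did not pass: Csf1 had a change of 1.01 (adjusted p = 0.0562) and Il34 of 0.41 (adjusted p = 0.528). Within females Csf1 did pass (1.81; adjusted p = 0.00419).

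Many pan-macrophage and recruited-cell genes were called higher over all LKO-labelled livers and in LKO-labelled females. Few were called within males in the fit with 1 mean per genotype and sex. Of 18 pan-macrophage genes, 13 were called higher (median log2 change 1.51, 2.30 in females and 0.68 in males), and 9 were after median-of-ratios scaling. Without both LKO-labelled females 5 of these 18 genes were called higher, and without the 2 livers low in Gm42418 7 were. These fits called 3129 and 1517 of all 13573 tested genes higher. Lgmn, a lysosomal protease, averaged 126 ± 68.8 FPKM in LKO-labelled livers and 27.7 ± 7.16 in WT livers (SD, n = 4 each; adjusted p = 0.00128 by limma). Cd68, a lysosomal macrophage protein, rose by 1.85 (adjusted p = 0.0113) and C1qa, a complement subunit, by 1.02 (adjusted p = 0.0406). Of 16 genes of recruited monocytes and macrophages, 11 were called higher, among them Plac8 (2.14; adjusted p = 0.00197), Lgals3 (3.34; adjusted p = 0.00554) and Ccr2, the receptor for CCL2 (1.504; adjusted p = 0.0484). Without both LKO-labelled females 9 of the 16 recruited-cell genes were called higher and 1 lower, and with quantile normalization 6 were called higher. Ccr2 had a change of 2.84 in females (adjusted p = 0.000449) and of 0.17 in males (adjusted p = 0.661). Trem2, a lipid-sensing receptor, passed in females alone among these fits (2.13; adjusted p = 0.0362), with 1.40 over all livers (adjusted p = 0.0633). In females 16 of the 18 pan-macrophage and 16 of the 16 recruited-cell genes were called higher, where 28.1% of all genes were. In males 3 and 1 were, where 13.4% of all genes were. These male changes are also those of the fits without both LKO-labelled females (medians 0.68 and 0.69), which use another estimate of spread. The limma test of the difference between the sexes called 6 genes in either list, each with the larger change in females, and limma-voom called 1 and 0.

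**Figure D4:**
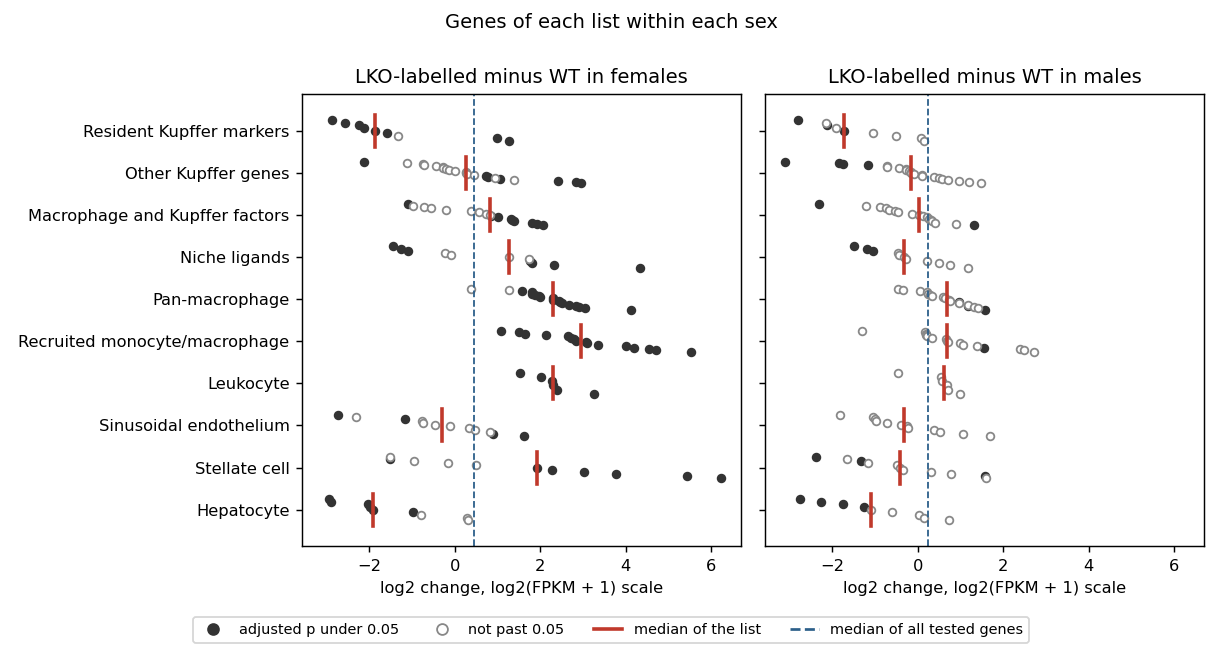
Change of each gene, LKO-labelled minus WT, on the log2(FPKM + 1) scale within females (left panel) and males (right panel), with 1 point per gene, filled at an adjusted p under 0.05, a red bar at the median of the list and a dashed line at the median of all tested genes. The resident markers have their median at −1.85 in females and −1.73 in males, while the pan-macrophage median is 2.30 in females and 0.68 in males.

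Genes of other cells moved as well. Of 6 leukocyte genes 5 were called higher (Ptprc, 1.42; limma adjusted p = 0.0257), and of 9 tested neutrophil genes 6 were (S100a8, 3.39; adjusted p = 0.0147). Without both LKO-labelled females these counts were 1 and 3, and with quantile normalization 1 and 2. The summed FPKM of the pan-macrophage list was 1787 to 2557 in LKO-labelled females and 307 to 424 in LKO-labelled males, against 210 to 408 in WT livers. The recruited-cell list summed to 1069 to 4345 in LKO-labelled females and 245 to 267 in LKO-labelled males, against 130 to 254 in WT livers. Spp1 and Fn1 carry most of these sums: Spp1 was at 291 and 3145 FPKM in the LKO-labelled females, and Fn1 was at 95.01 to 212 in WT livers. The other 14 genes summed to 409 and 749 in LKO-labelled females and 50.4 and 102 in LKO-labelled males, against 15.8 to 21.8 in WT livers. The neutrophil list summed to 65.9 to 403 in LKO-labelled females and 11.0 to 20.5 in LKO-labelled males, against 1.37 to 5.22 in WT livers. The 9 resident markers summed to 65.2 to 132 in LKO-labelled females and 32.9 to 65.9 in LKO-labelled males, against 93.6 to 218 in WT livers. The part of these other cells in the markers' change was not tested. Without both LKO-labelled females the same 6 markers were called lower (limma adjusted p of 0.0300 or less for each). That fit called 983 of 13573 tested genes lower and 3129 higher. The changes in that fit are those within males, where 3 of the 6 were called (Timd4, Marco and Cd163). The 2 fits differ in their estimate of spread. Among 12 sinusoidal endothelial genes 3 were called lower, Clec4g, a lectin of these cells, most (−2.28; adjusted p = 0.0170; 5 lower and 2 higher in the list without both LKO-labelled females), with Stab2, a scavenger receptor, not passing (−0.50; adjusted p = 0.198), and among 9 hepatocyte genes 3 were called lower. The hepatocyte gene Alb was at 15078 to 21853 FPKM in LKO-labelled livers, against 30795 to 36039 in WT livers.

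Across the receptor families of the markers, genes were called in both directions. Of all tested genes, 24.7% were called higher and 5.74% lower by limma. Among 9 tested C-type lectin genes, 3 fell, Clec4f and Clec4g among them, and 3 rose (1 without both LKO-labelled females), led by Clec7a (2.31; limma adjusted p = 0.00303), the receptor for fungal glucans. Of 9 tested receptors and bridging proteins for apoptotic cells, Timd4 fell while Mfge8, which bridges phosphatidylserine to integrins, rose to 112 ± 77.6 FPKM in LKO-labelled livers, against 4.83 ± 2.13 in WT livers (SD, n = 4 each; 4.13; adjusted p = 0.000385). Of 12 scavenger receptors, Marco and Cd163 fell and 2 rose (1 with quantile normalization or without both LKO-labelled females), among them Cd36 (1.17; adjusted p = 0.00662). Of 8 listed complement genes, mostly receptors and with the component C3 among them, Vsig4 fell and 4 rose. Itgax (2.03; adjusted p = 0.0121) and C5ar1 (1.58; adjusted p = 0.0276), both receptors of myeloid cells, were among those that rose. Only 1 of the 8 rose with quantile normalization, without both LKO-labelled females or without the 2 livers low in Gm42418. Within males 0 of the 8 were called higher by limma or limma-voom and 2 passed at an unadjusted p under 0.05, with C5ar1 at 0.46 (adjusted p = 0.263). In haem and iron clearance, Cd163 fell while Hp, which encodes its haemoglobin-binding ligand haptoglobin, averaged 4532 ± 1014 FPKM in LKO-labelled livers and 1330 ± 250.5 in WT livers (SD, n = 4 each; 1.76; adjusted p = 0.00388). Of 9 tested genes of the CSF receptors and their ligands, 3 rose, Csf2ra, a chain of the GM-CSF receptor, first (1.71; adjusted p = 0.00708). Adgre5 and Adgrg1, relatives of Adgre1 among the adhesion receptors, rose by 1.60 (adjusted p = 0.00879) and 2.04 (adjusted p = 0.00752). Folr2 was the only one of 3 tested folate receptors and carriers that was called.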

How the data were processed

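RNA from 8 mouse livers was measured. The authors' deposited table gives FPKM per gene; per the submitters' processing notes, the tools were STAR 2.6.1, DESeq2, HTSeq and fastp, listed without roles, and the build was mm10. Ensembl identifiers were matched to symbols for 34490 of 35275 identifiers. FPKM steps gave whole fragments (tolerance 0.001) for 99.996% of identifiers above 0, which gave each depth; 12532 identifiers were at 0 in every library. Intervals of counts cover counting error only.

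Genes with a mean of at least 0.5 FPKM (13573) were tested with limma 3.58.1 (R 4.3.3), with trend, on log2(FPKM + 1), with terms for sex and genotype and Benjamini-Hochberg adjustment over all tested genes (threshold 0.05). A fit with 1 mean per genotype and sex gave within-sex effects and their difference. Single markers were tested by exact two-sided permutation over 70 arrangements (SciPy 1.17.1). The fits were tested on simulated data. Replicate numbers follow accession order and name livers only; they coincide with the same-sex pairs of neighbouring title numbers used as a block in 1 alternative. The markers and gene lists were chosen with earlier results of these data known. From each list up to 4 genes with the smallest p among those past the threshold were eligible to be named, plus 14 genes chosen by name and the 5 nearest patterns of Clec4f, Timd4 and Csf1r. Alternatives were another pseudocount, 2 other filters, 3 scalings, no sex term, a block on neighbouring title numbers, leaving out livers, and limma-voom on recovered fragments. Counting by edgeR and DESeq2 was not run, as the deposited values are FPKM. Some genes that the naming rule picks are not reported here.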

Additional observations from a re-analysis of the deposited data

Results flagged for a closer look

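Timd4 and Folr2 each had 1 LKO-labelled liver, female 2, far above the other 3. For Timd4 (0.741 FPKM, against 0.0258 to 0.118 in the other 3) the gap to the next liver was 0.871 of the group's range, and for Folr2 (10.0 FPKM, against 0.493 to 1.04) it was 0.943, both above Dixon's 95% limit of 0.829 for 4 values. Chance flags about 1 in 20 groups, and both ends of 18 groups (9 markers in 2 genotypes) were examined. Without that liver, the mean of Timd4 was 45.9-fold lower in LKO-labelled livers, against 13.9-fold with it, and the log2 change of Folr2 was −2.22 and its limma adjusted p was 0.00164.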

How the results depend on the processing

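The calls of Timd4, Marco and Cd163 held in all 19 alternatives run, that of Clec4f ended in 1, of Vsig4 in 4 and of Folr2 in 11; with 4 livers a group, 1 liver decides many calls. Leaving out 1 liver, the markers called lower were 3 to 6 (3 without WT replicate 2) and called higher 0 to 1 (Csf1r, without LKO-labelled replicate 3); in females 2 to 6 lower and 0 to 2 higher, in males 1 to 6 lower, and for the difference between the sexes 0 to 2 with the smaller and 0 to 1 with the larger value in females. Median-of-ratios scaling and quantile normalization each left 0 called higher in females. With no filter on low values 4 were called lower. All-gene calls numbered 4132 as reported, 2421 with quantile normalization, 1970 without both livers low in Gm42418, and 1957 to 4054 leaving out 1 liver. Calls of the sex difference numbered 978, 577 with a pseudocount of 0.1, 94 by limma-voom and 31 to 2837 leaving out 1 liver. Called counts within sex spanned 1999 to 6023 in females (4657 as reported) and 341 to 4141 in males (2374).

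Signs reversed only for values that were not called. In males, median-of-ratios scaling gave −0.13 for Adgre1 and −0.25 for Csf1r, and quantile normalization −0.19 and −0.25. Leaving out 1 liver, the range in males was −1.10 to 0.0887 for Cd5l, −0.0936 to 0.40 for Adgre1 and −0.28 to 0.41 for Csf1r, in females −2.68 to 0.0032 for Folr2, and for the ratio of Adgre1 to Csf1r −0.15 to 0.0066. The sex difference was 0.86 for Timd4 and 0.97 for Cd163 with a pseudocount of 0.1, and 1.78 and 1.38 by limma-voom. Its leave-one-out range was −2.33 to 0.85 for Clec4f, −0.44 to 0.20 for Timd4, −0.59 to 1.73 for Marco, −0.35 to 0.33 for Cd163 and −0.76 to 1.92 for Folr2. The cause was not tested. The block on neighbouring title numbers called 5 markers lower and 2505 genes in all; it lost Folr2 (adjusted p = 0.0528 by limma). The pairs are same-sex livers with near title numbers, and no label says what near numbers share. Limma-voom and the fits without both LKO-labelled females were chosen after seeing the data. The latter fits give the same changes as those within males and differ from them in the estimate of spread. The planned edgeR and DESeq2 fits were not run, as the values are FPKM. With 3 against 4 livers the ratio and permutation tests cannot pass 0.05 and were given as values only.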

Other observations

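Genes of cells that share the sinusoid with Kupffer cells differed too. Of 11 stellate cell genes, 3 were called higher and 3 lower by limma (1 and 1 without the 2 livers low in Gm42418): Acta2, smooth muscle actin of activated stellate cells, averaged 20.9 ± 18.9 FPKM in LKO-labelled livers and 1.497 ± 0.43 in WT livers (SD, n = 4 each; log2 change 2.68; limma adjusted p = 0.00484), while Reln, a gene of quiescent stellate cells, fell by 1.42 (adjusted p = 0.00657). Tek and Gpr182, both endothelial receptors, fell by 0.87 (adjusted p = 0.0213) and 0.93 (adjusted p = 0.0284). All 5 proliferation genes were called higher over all livers and in either sex. Of all genes, 24.7% were over all livers, 28.1% in females and 13.4% in males. Their median log2 change over all livers was 2.16 (Mcm6, 2.61, limma adjusted p = 0.000963). Median-of-ratios scaling called 4 of the 5 in females and 5 in males, and quantile normalization called 3 and 4. Dendritic cell and lymphoid lists had 0 genes called over all livers by limma, with 1 of 5 and 2 of 8 at an unadjusted p under 0.05, and limma-voom called 1 and 2. Of 3 tested cholangiocyte genes, 0 were called over all livers by limma, by limma-voom or at an unadjusted p under 0.05. Within females 2 of the 3 were called higher by both tools, where limma called 28.1% of all genes higher. Median-of-ratios scaling and quantile normalization each left 1 called higher within females. Spp1, which the recruited-cell list also holds, was at 291 and 3145 FPKM in LKO-labelled females and 8.65 and 5.55 in LKO-labelled males, against 17.5 to 20.03 in WT livers, and the other 6 listed genes summed to 3.08 and 13.5 in LKO-labelled females and 1.17 and 1.91 in LKO-labelled males, against 1.21 to 2.51 in WT livers.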
